A study of Mus musculus with 6 samples.

Results

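The binding sites of HOXA13 and HOXD13, together called HOX13, were set against the sites of CTCF in the developing mouse forelimb. The HOX13 sites were the union of both deposited peak lists, with overlapping regions merged, and the CTCF sites were the list of the distal forelimb (DFL, the presumptive digits), all on chromosomes 1 to 19 and X. A HOX13 region and a CTCF region were called joint where they shared at least 1 bp. By this rule 6852 of 76732 HOX13 regions were joint, and 6825 of 54673 DFL CTCF regions. The remaining 69880 HOX13 regions and 47848 CTCF regions are called separate.

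The CTCF list was 1 of 6 ChIP-seq samples made from forelimb buds at E12.5 (E, embryonic day) of wild-type embryos, all of strain B6CBAF1. CTCF, H3K27ac and H3K27me3 were each profiled in DFL and in the proximal forelimb (PFL), with 1 library per factor or mark and piece, made from tissue pooled over embryos. The HOX13 lists came from whole forelimb buds labelled wild type and E11, belonged to no sample of the series and also had 1 library each, and their strain is not given in the sources used here. In the lists used here HOX13 and CTCF were therefore not measured in the same tissue at the same stage, and a joint site is a position found in both lists, not a pair of proteins seen on the same DNA molecule. The effects of stage and tissue cannot be told apart from those of the factor. With no replicates no p-value was computed, and intervals are Wilson 95% intervals, which cover counting error only.

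HOXA13 and HOXD13 are homeodomain transcription factors encoded at the 5′ ends of the HoxA and HoxD clusters, and they pattern the digits together. In the distal bud they occupy many enhancers, including those in the gene desert that drives the last Hoxd genes in the digits. CTCF is a zinc-finger protein that reads a long motif in one orientation. Together with cohesin it holds the bases of chromatin loops and marks many borders of topological domains, and the Hox clusters are dense in CTCF sites.

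The sites printed here show the forms that joint sites took. Sequences are from mm10, plus strand, 50 bp on each side of the closest pair of summits, and were chosen after the values were seen. Capitals mark every match on either strand to a HOX13 word (CAATAAA or TCGTAAA), to the CTCF core AGNNGGCNC or to a longer CTCF core of 12 letters. The 3′ part of the longer core has the form of the start of the shorter core, so matches to both can overlap. The first 4 are the joint sites with the best ranks in both lists among those with summits within 150 bp, a longer core at the CTCF summit and a HOX13 word at the HOX13 summit, and they lie near Slc10a1, a bile acid transporter gene, in Rad9b, near the protease gene Adamts18 and near Tub.
Slc10a1, chr12:80982469-80982577: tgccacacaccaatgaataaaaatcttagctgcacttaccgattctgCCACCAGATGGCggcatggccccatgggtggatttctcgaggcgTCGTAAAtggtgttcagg
Rad9b, chr5:122344332-122344513: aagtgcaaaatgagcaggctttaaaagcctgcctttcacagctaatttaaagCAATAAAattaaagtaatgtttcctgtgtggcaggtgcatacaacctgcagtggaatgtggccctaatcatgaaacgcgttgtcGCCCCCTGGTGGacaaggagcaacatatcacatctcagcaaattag
Adamts18, chr8:113984901-113985092: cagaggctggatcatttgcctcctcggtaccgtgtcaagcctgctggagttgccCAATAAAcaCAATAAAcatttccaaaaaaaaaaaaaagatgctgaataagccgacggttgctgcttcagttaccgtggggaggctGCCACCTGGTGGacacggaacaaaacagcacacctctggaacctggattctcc
Tub, chr7:108944116-108944255: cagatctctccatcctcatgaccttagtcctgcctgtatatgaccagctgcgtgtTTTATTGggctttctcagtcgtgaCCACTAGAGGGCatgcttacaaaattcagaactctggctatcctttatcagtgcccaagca
In the Slc10a1, Rad9b and Adamts18 windows the HOX13 word lies on the 3′ side of the CTCF core as the core is read on its own strand, and in the Tub window it lies on the 5′ side.

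The next 2 were picked with the same sites left out. They are the best-ranked joint sites that met 3 conditions. These were a longer core, summits within 25 bp of each other and no HOX13 word within 50 bp of the highest HOX13 summit. The lack of a word was thus part of the choice and not a result. One lies near Rfx7, a transcription factor gene, in an intron of a noncoding gene, and the other in an intron of Pdk1, a kinase gene of glucose metabolism.
Rfx7, chr9:72530365-72530468: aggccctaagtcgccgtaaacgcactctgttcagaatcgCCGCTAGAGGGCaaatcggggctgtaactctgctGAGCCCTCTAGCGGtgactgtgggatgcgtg
Pdk1, chr2:71898634-71898735: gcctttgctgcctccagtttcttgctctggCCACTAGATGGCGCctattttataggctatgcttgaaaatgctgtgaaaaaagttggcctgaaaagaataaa
The Rfx7 window holds 2 longer cores facing opposite ways, and its summits lay 3 bp apart. In the Pdk1 window the HOX13 summit lay 1 bp from the CTCF summit.

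From the Hox intervals described below come the joint sites with summits at most 50 bp apart and a CTCF core of either length.
Atp5g3, chr2:74027839-74027968: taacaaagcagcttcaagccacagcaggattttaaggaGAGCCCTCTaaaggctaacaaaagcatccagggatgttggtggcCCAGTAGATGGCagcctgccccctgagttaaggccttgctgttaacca
Mtx2, chr2:74964473-74964575: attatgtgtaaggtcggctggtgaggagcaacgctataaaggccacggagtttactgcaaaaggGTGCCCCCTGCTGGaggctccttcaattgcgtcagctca
Skap2, chr6:51876052-51876191: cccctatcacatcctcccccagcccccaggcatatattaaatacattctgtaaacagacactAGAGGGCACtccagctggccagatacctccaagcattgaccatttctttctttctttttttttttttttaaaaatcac
The first is on the centromeric side of HoxD, the side of the digit enhancers, the second is on the telomeric side, and the third is in an intron of Skap2 beside HoxA.

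Separate sites are shown for contrast. Among the 5 strongest HOX13 regions without CTCF 1 had a HOX13 word within 50 bp of its summit, and it lies near Tmem132e. Of all separate HOX13 regions 13.5% had a word there, and 16.6% of those in the strongest HOX13 fold quartile. Among the 5 strongest CTCF regions without HOX13 2 had a CTCF core of either length. The short core was at 29.3% of all separate CTCF regions and at 36.2% in the strongest CTCF fold quartile. The longer core was at 18.4% of all separate ones. The region shown, 80 bp from the 5′ end of Lrrc59, was the strongest of the DFL list.
Tmem132e, chr11:82528552-82528652: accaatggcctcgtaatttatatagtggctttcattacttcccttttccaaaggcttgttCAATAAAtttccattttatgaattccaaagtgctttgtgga
Lrrc59, chr11:94629637-94629737: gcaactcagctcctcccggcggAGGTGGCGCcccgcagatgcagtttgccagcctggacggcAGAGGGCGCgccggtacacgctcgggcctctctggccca
The HOX13 window holds 1 CAATAAA word, and the CTCF window holds 2 matches to the short core.

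Joint sites were a minority of both lists. They made up 8.93% of HOX13 regions (8.73 to 9.13%) and 12.48% of DFL CTCF regions (12.2 to 12.8%), and these are also the background shares for the classes that follow. The share hardly depended on which HOX13 factor was found. It was 8.87% among the 41230 regions with both factors, 8.82% among the 25400 with HOXA13 alone and 9.45% among the 10102 with HOXD13 alone (8.90 to 10.04%). Across chromosomes the HOX13 share ranged between 7.13% on X and 11.5% on chromosome 7, and the CTCF share between 10.1 and 15.7% on the autosomes, against 5.56% on X.

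Moving the CTCF list along the genome removed most of the overlap. After 100 evenly spaced circular shifts within each chromosome 1.73% of HOX13 regions overlapped CTCF on average, with a range of 1.56 to 1.95%, so the observed share was 5.17 times the shifted mean. Over CTCF regions the shifted mean was 2.41%, with a range of 2.17 to 2.72%. Shifts of only 10 to 100 kb, which keep each site in its own neighbourhood, gave 2.09 to 2.25% and a ratio of 4.11. The ratio was higher at promoters. Within 2 kb of a protein-coding transcript start 17.0% of HOX13 regions were joint (1694 of 9965), against 1.74% after shifting, a ratio of 9.78, and farther away 7.73% were joint (5158 of 66767), against 1.73%, a ratio of 4.48. With local shifts the 2 ratios were 5.36 and 3.82.

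The overlap rose with the strength of CTCF and not with that of HOX13, though CTCF strength went along with region length. Strength is the deposited fold enrichment at the highest summit of a region, the pileup plus 1 over the local background plus 1 of the same library. In the weakest decile of CTCF regions 7.91% overlapped HOX13 (7.27 to 8.61%), and in the strongest decile 23.0% did (21.9 to 24.2%), with a lowest value of 6.99% in the third decile. Stronger CTCF regions were longer, with a median of 519 bp in the strongest decile and 236 bp in the weakest. After shifting, which keeps the lengths, the strongest decile overlapped at 2.82% and the weakest at 2.01%, so the ratio to the shifted share was 8.18 in the strongest decile and 3.94 in the weakest.

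HOX13 regions showed no such climb. The joint share was 7.55% in their strongest decile (6.98 to 8.16%) and 7.81% in their weakest (7.23 to 8.43%), with the highest value, 9.99%, in the fifth. Strong HOX13 regions were longer, with medians of 701 bp in the strongest decile and 181 bp in the weakest, and met shifted CTCF more often (2.37 against 1.27%). The ratio to the shifted share was lowest where HOX13 was strongest. It was 3.19 in the strongest decile, 7.15 in the second decile and 6.16 in the weakest. The HOXA13 and HOXD13 lists taken singly gave joint shares of 7.30 and 6.74% in their strongest decile and 8.24 and 7.80% in their weakest.

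**Figure D1:**
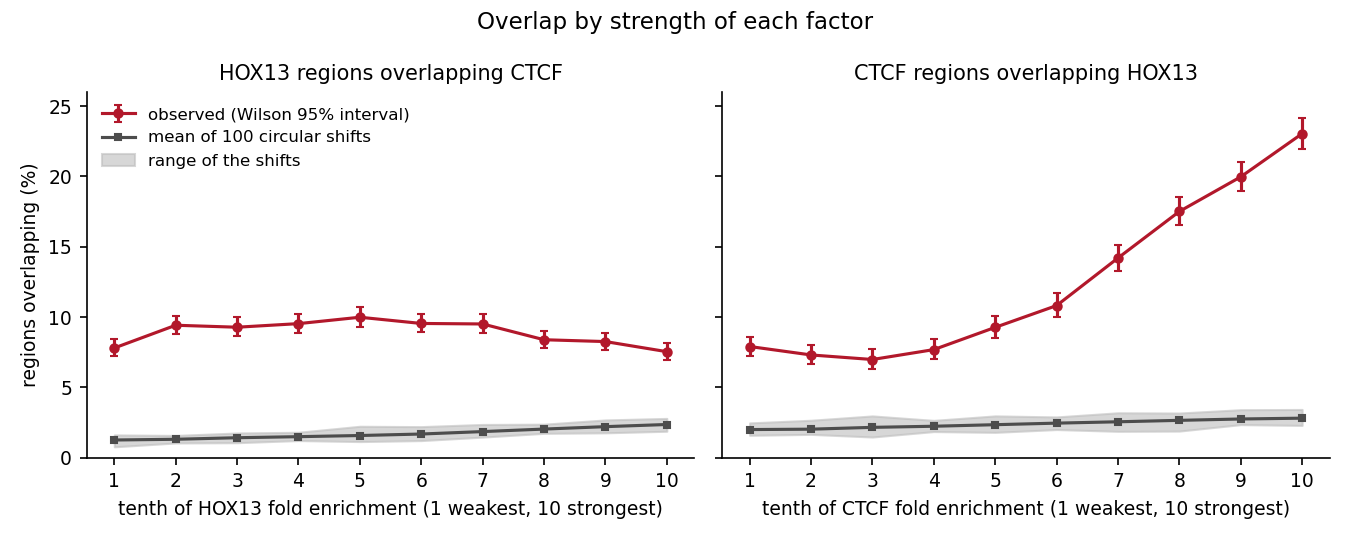
Percent of HOX13 regions that overlap DFL CTCF (left) and of DFL CTCF regions that overlap HOX13 (right), by decile of fold enrichment, with Wilson 95% intervals; squares and grey bands are the mean and range of 100 circular shifts. The HOX13 curve stays between 7.55 and 9.99%, and the CTCF curve climbs to 23.0% in the strongest decile, against shifted means of at most 2.82%.

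The summits of the factors lay close together. At joint sites the nearest HOX13 and CTCF summits were a median of 111 bp apart (quartiles 50 and 197 bp), and 46.3% of joint HOX13 regions had them within 100 bp (45.1 to 47.5%). After circular shifts the regions that overlapped had a median of 165 bp (range 152 to 176 bp over shifts) and 32.8% within 100 bp (28.9 to 36.7%). Summits within 25 bp of each other were found at 906 joint regions (13.2%), and summits more than 300 bp apart at 679 (9.91%). Regions with HOXA13 alone were the farthest from CTCF, with a median of 130 bp, against 99 bp for those with both factors and 99 bp for HOXD13 alone. Measured on each list by itself, joint HOXA13 regions had a median of 134 bp and joint HOXD13 regions one of 106 bp. Joint HOXA13 regions were also longer, with a median length of 376 bp against 280 bp, and the part of length in the distances was not tested.

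Seen from the CTCF summits, HOX13 summits formed a narrow mound. Within 100 bp there were on average 1041 HOX13 summits per 50-bp bin, counted over both lists, against 188 per 50 bp at 10 to 20 kb, a ratio of 5.53. The count fell below 2 times the distant level at 450 bp. The 2 central bins, within 50 bp of the CTCF summit, held 988 and 1000 summits, fewer than the 1055 and 1122 of the bins just outside them.

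When the sites were oriented by the CTCF core the mound was lopsided. A core AGNNGGCNC lay within 50 bp of the CTCF summit at 16030 DFL CTCF regions. From 50 to 150 bp past the core on its 3′ side there were 677 HOX13 summits, and 447 at the same distances on its 5′ side, so 60.2% were on the 3′ side (57.3 to 63.1%). These counts pool the summits of both lists, so a site with both factors can count more than once. The intervals of pooled summit shares are therefore too narrow. The 3′ share was 60.3% for HOXA13 (370 against 244) and 60.2% for HOXD13 (307 against 203), which are not independent because the lists share most of their sites. It was 61.5% for cores on the plus strand and 59.0% for cores on the minus strand, 60.3% around PFL CTCF, and 65.7% with the longer core (627 against 328). Away from transcript starts it was 63.1% (558 against 326), whereas within 2 kb of a start it was 49.6% (119 against 121, 43.3 to 55.9%). Farther out, at 500 to 1000 bp, 55.3% of the summits were on the 3′ side (53.0 to 57.7%), 54.4% away from starts and 57.2% near them (53.1 to 61.1%). Around the strongest quartile of CTCF regions the far share was 62.7%, against 60.6% near the core.

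Summits of H3K27ac did not lean that way near the core, but did farther out. Summits of DFL H3K27ac at 50 to 150 bp were on the 3′ side in 48.5% of cases (198 against 210), and those of PFL H3K27ac in 49.2%. At 500 to 1000 bp their 3′ shares were 57.4 and 56.1%, against 55.3% for HOX13. CTCF summits themselves lay a median of 7 bp to the 3′ side of the core. The HOX13 words were searched at 20 to 150 bp on both sides. At joint sites 111 of 1988 cores had a word on the 3′ side and 123 on the 5′ side, a 3′ share of 47.4% (41.1 to 53.8%), and with the longer core the counts were 101 and 89 (53.2%, 46.1 to 60.1%). At separate sites words were fewer on the 3′ side, with 262 against 378 (40.9%, 37.2 to 44.8%). Within quartiles of CTCF fold the 3′ share of HOX13 summits was 61.9, 50.98, 62.1 and 60.6% in order of increasing fold.

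**Figure D2:**
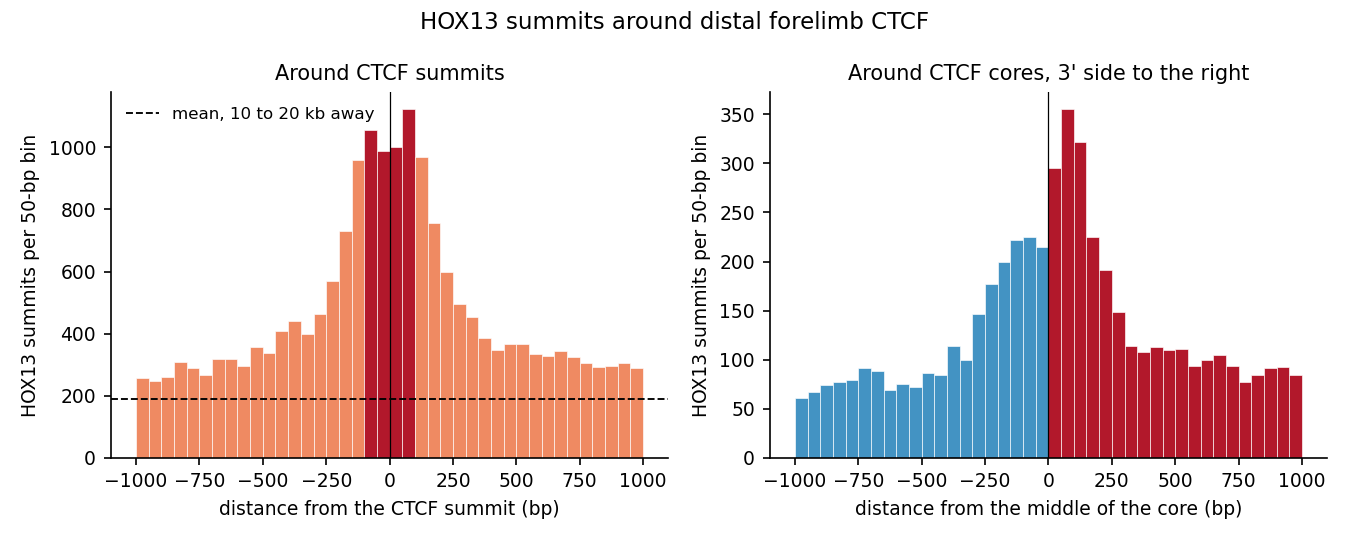
HOX13 summits per 50-bp bin around DFL CTCF summits (left; dark bars are the 4 bins within 100 bp, dashed line the mean at 10 to 20 kb) and around CTCF cores turned to one orientation (right; red is the 3′ side, blue the 5′ side). The left mound averages 1041 per bin in its centre, and on the right the highest bin, 50 to 100 bp past the core, holds 355 summits, against 225 in its mirror bin.

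CTCF was stronger at joint than at separate regions, and HOX13 was not. The CTCF fold had a median of 11.5 at joint regions (quartiles 6.43 and 15.5) and 7.36 at separate ones (4.42 and 12.4), a ratio of 1.57 (1.54 to 1.60, from the order-statistic interval of the joint median). The PFL CTCF list gave 11.3 and 7.10. In fragments, the solved summit pileup was 129 at joint and 64 at separate DFL regions, and the solved local background was 9.48 and 7.27, so both parts of the fold were higher at joint regions. The difference went along with length, since joint CTCF regions had a median of 455 bp and separate ones 380 bp. Within quartiles of CTCF region length the ratio of folds was 0.964, 1.02, 1.10 and 1.03 in order of increasing length. Strength and width of CTCF regions moved together and their parts in the overlap were not tested. Within the longest quartile the joint share was 23.4% in the strongest decile (1024 of 4374) and 43.6% in the weakest (24 of 55, 31.4 to 56.7%). Within the third quartile it was 21.6% (233 of 1080) and 17.4% (21 of 121, 11.6 to 25.1%), and within the second 21.4% (3 of 14) and 10.5% (63 of 599). In the shortest quartile the weakest decile had 7.06% (386 of 5469), and the strongest decile had no regions there.

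The HOX13 fold had a median of 3.38 at joint and 3.39 at separate regions, a ratio of 0.996 (0.986 to 0.996). HOXA13 gave 3.40 and 3.52 (ratio 0.965) and HOXD13 gave 3.24 and 3.33 (ratio 0.973). The upper quartile was lower at joint regions, 4.65 against 4.94. In the longest quartile of HOX13 regions the ratio was 0.875, with medians of 5.27 at joint and 6.03 at separate regions, and in the shortest quartile it was 1.01. Near transcript starts joint HOX13 regions were slightly stronger (3.30 against 3.10), and away from them slightly weaker (3.38 against 3.48). Of the 6932 overlapping pairs of regions, 549 (7.92%) united the strongest quartile of both lists, while 711 (10.3%) united the weakest quartile of HOX13 with the strongest quartile of CTCF.

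**Figure D3:**
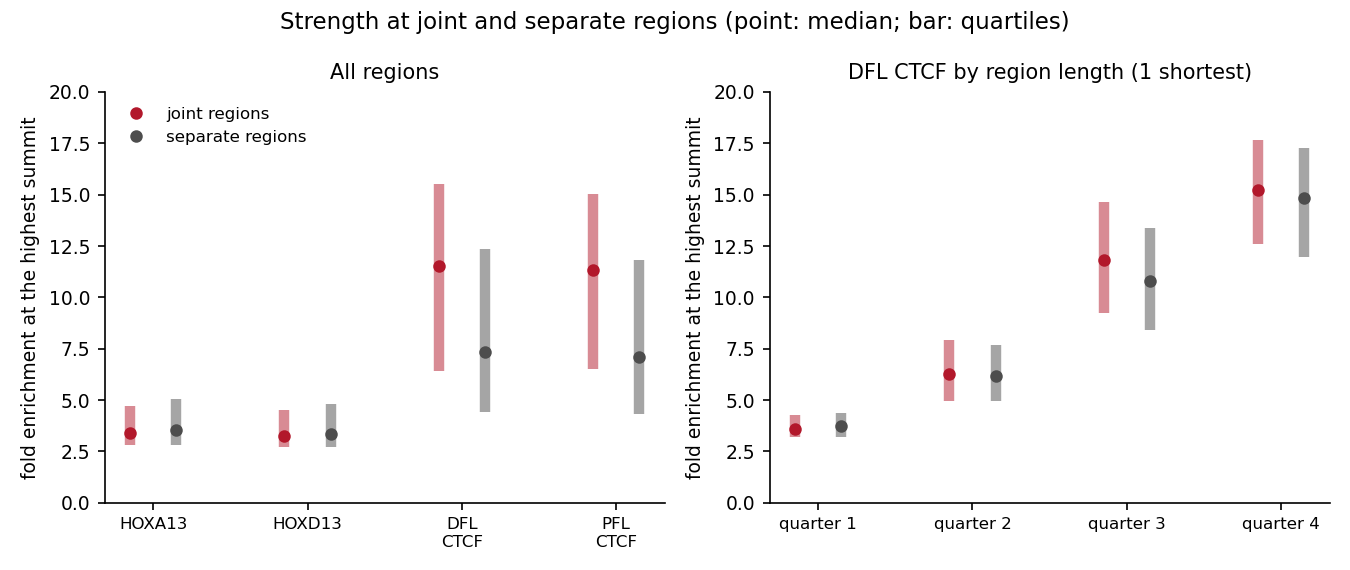
Fold enrichment at the highest summit of joint (red) and separate (grey) regions, as medians with quartile bars, for HOXA13, HOXD13 and both CTCF lists (left) and for DFL CTCF within quartiles of region length (right). Joint CTCF regions had a median of 11.5 against 7.36, the joint and separate medians of each HOX13 factor lay within 0.2 of each other, and within length quartiles the CTCF medians differed little.

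Joint sites carried H3K27ac, the mark of active promoters and enhancers, more often than separate ones. DFL H3K27ac covered 41.4% of joint HOX13 regions (40.3 to 42.6%) and 26.98% of HOX13 regions without CTCF (26.7 to 27.3%). On the CTCF side it covered 41.3% of joint regions and 10.5% of CTCF regions without HOX13, a ratio of 3.94. PFL H3K27ac gave almost the same shares, 41.1 against 25.4% for HOX13 and 42.0 against 11.8% for CTCF. Proximity to starts moved with this, since 24.7% of joint HOX13 regions and 11.8% of separate ones lay within 2 kb of a transcript start. Away from starts the DFL H3K27ac shares were 29.2 and 21.3% for HOX13 (ratio 1.37) and 28.5 and 5.26% for CTCF (ratio 5.43). Turned round, 13.09% of HOX13 regions with DFL H3K27ac were joint, and 7.29% of those without it. Local shifts gave 2.96 and 1.86%, so shifted CTCF also met acetylated HOX13 regions more often. The observed over shifted ratios were 4.43 with the mark and 3.91 without it, and with circular shifts 6.73 and 4.45.

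Split by DFL H3K27ac and by nearness to a start, acetylated CTCF regions overlapped HOX13 in 39.9% of 3684 cases away from starts (38.4 to 41.5%) and in 32.4% of 4146 cases near them (31.0 to 33.9%). Without the mark the shares were 8.46% of 43538 away from starts and 9.86% of 3305 near them. In the class with neither mark nor start, the joint share was 17.9% in the strongest CTCF decile and 3.99% in the weakest. Within quartiles of HOX13 fold the share of joint regions with DFL H3K27ac lay between 33.6 and 55.0%, against 19.9 to 38.1% of separate regions, higher at joint regions in each of the 4 quartiles. The accessibility of these sites was not measured in the lists used here.

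H3K27me3, the mark of Polycomb repression, was called at few of these sites. Its lists hold short regions that together cover 7.11 Mb in DFL and 11.06 Mb in PFL. No shifted share was computed for the mark, so its shares show neither an excess nor a lack. The mark covered 2.20% of joint and 1.12% of separate HOX13 regions in DFL, and 3.88 and 2.20% in PFL. Of the CTCF regions 2.15% of joint and 2.14% of separate ones had it in DFL, and 3.93 and 3.13% in PFL. Away from starts the CTCF shares were 1.57 and 0.929% in DFL, and 3.07 and 1.55% in PFL. Away from starts the DFL shares of HOX13 regions were 1.67 and 0.640%.

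**Figure D4:**
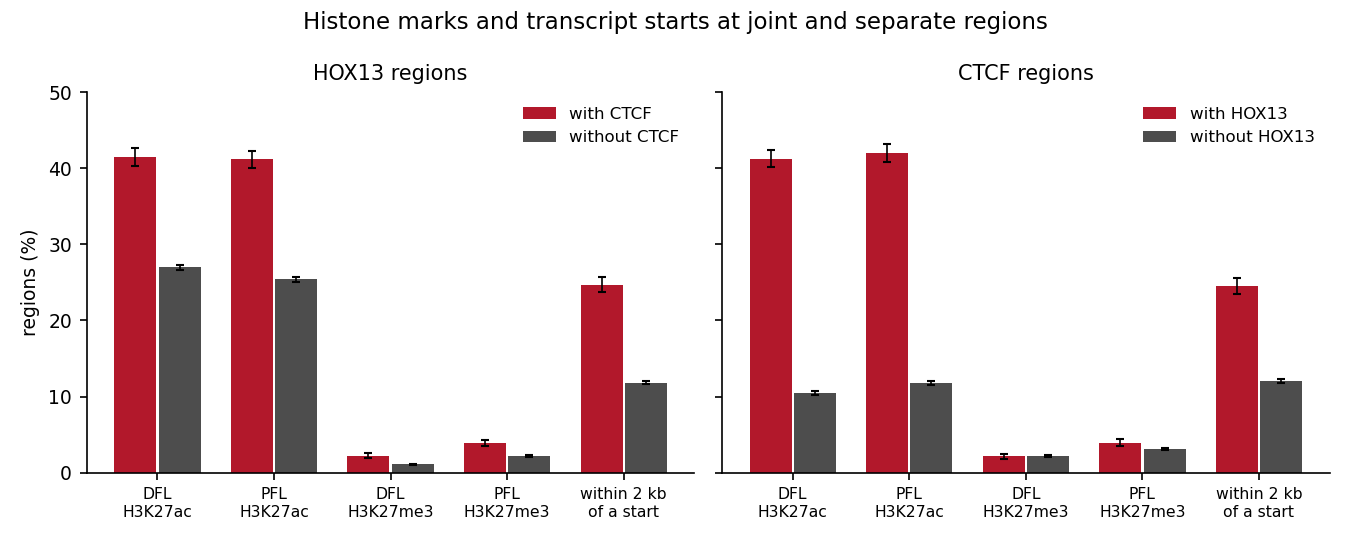
Percent of HOX13 regions (left) and DFL CTCF regions (right) that overlap each histone mark list or have their summit within 2 kb of a protein-coding transcript start, for regions with the other factor (red) and without it (grey), with Wilson 95% intervals. DFL H3K27ac covers 41.4 against 26.98% of HOX13 regions and 41.3 against 10.5% of CTCF regions.

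CTCF at joint sites was mostly present in both pieces of the limb. Of joint DFL CTCF regions 92.6% were also PFL CTCF regions (92.0 to 93.2%), and of separate ones 88.1% (87.9 to 88.4%). This went along with strength. Among CTCF regions of the weakest fold quartile, 7.91% of those missing from PFL overlapped HOX13, against 7.06% of those shared with PFL, and in the next quartile 10.1% (7.82 to 12.8%) against 8.28%. The distal to proximal ratio of CTCF fold at shared regions was also alike, with a median log2 ratio of 0.06 at joint and 0.08 at separate regions. HOX13 regions without DFL CTCF seldom met PFL CTCF, at 411 of 69880 (0.588%).

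In sequence, joint HOX13 regions had fewer HOX13 words and more CTCF cores at their highest summit. CAATAAA or TCGTAAA lay within 50 bp of the HOX13 summit at 9.59% of joint regions (8.91 to 10.3%) and 13.5% of separate ones (13.2 to 13.7%), against 2.87% at positions 5 kb away. For CAATAAA alone the shares were 8.13 and 11.5%, and for TCGTAAA 1.53 and 2.08%. The CTCF core AGNNGGCNC was found at 9.50% of joint and 4.56% of separate HOX13 summits, with 4.08% at 5 kb. The longer core was found at 4.07 and 0.0587%, with 0.0964% at 5 kb. Matches depended on the distance between the summits: with summits at most 25 bp apart 18.7% of joint HOX13 summits had the short core within reach, and with summits more than 300 bp apart 6.63% did. The words followed HOX13 strength at both kinds of region, and were at 14.1% of joint and 16.6% of separate regions in the strongest HOX13 quartile, against 6.87 and 10.7% in the weakest. Base composition differed as well, with a median of 46.5% G and C around joint HOX13 summits and 42.6% around separate ones.

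At CTCF summits the short core was at 29.1% of joint and 29.3% of separate regions, with 5.21% at 5 kb. Within quartiles of CTCF fold it was less common at joint regions in 3 of 4, at 16.8 against 22.5%, 21.9 against 28.1% and 28.2 against 31.9% in order of increasing fold, and in the strongest it was at 36.98 and 36.2%. The longer core was at 22.5 and 18.4%. HOX13 words were at 2.95% of joint CTCF summits (2.57 to 3.37%), at 0.773% of separate ones and at 2.45% of positions 5 kb away, so the share at joint CTCF summits was near that of the surrounding DNA and the share at separate summits was below it. G and C made up a median of 51.5% around both.

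At the HoxD locus, in the interval of 1.705 Mb plotted by the study, 16 of 211 HOX13 regions (7.58%, 4.72 to 11.96%) and 16 of 43 CTCF regions (37.2%, 24.4 to 52.1%) were joint. Around HoxA, over the cluster with 500 kb on each side (1.105 Mb), they were 16 of 136 HOX13 regions (11.8%, 7.37 to 18.3%) and 16 of 42 CTCF regions (38.1%, 25 to 53.2%). The HOX13 shares had intervals that included the genome-wide 8.93%, and the CTCF shares lay above the genome-wide 12.48%, in loci where HOX13 regions are dense. Circular shifts gave 2.07% of HOX13 regions at HoxD (range 0 to 7.58%) and 2.04% at HoxA (range 0 to 8.82%). PFL CTCF was present at 16 of 16 HoxD and 15 of 16 HoxA sites, and DFL H3K27ac at 3 and 5. No listed H3K27me3 region of either piece overlapped any of them. Those lists hold short regions, with medians of 629 bp in DFL and 588 bp in PFL. The study describes large H3K27me3 domains on the telomeric side of HoxD in distal cells. The lack of overlap therefore does not show that the mark was absent from these sites. Over all joint HOX13 regions PFL CTCF was at 91.4%, DFL H3K27ac at 41.4%, and H3K27me3 at 2.20% in DFL and 3.88% in PFL. Summits were within 50 bp at 4 HoxD and 7 HoxA sites. Over all joint HOX13 regions 13.2% had summits within 25 bp and a further 12.2% had them 26 to 50 bp apart.

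Most HoxD joint sites paired an ordinary HOX13 region with CTCF of varied strength. HOX13 folds, taking the higher of both factors, ran between 1.90 and 10.3 with a median of 3.17, and CTCF folds between 3.59 and 18.4 with a median of 11.5. Among these joint sites the strongest in HOX13 was on the telomeric side at chr2:75138065-75139026, intergenic and 312294 bp from the 5′ end of Mtx2, with fold 10.3 for HOXA13 and 8.70 for HOXD13. Its CTCF region had fold 15.96, the summits were 399 bp apart, and it carried PFL but not DFL H3K27ac. On the centromeric side the strongest joint site in HOX13 was chr2:73998493-73999601, intergenic, with folds of 7.32 and 7.24, CTCF fold 9.97 and summits 5 bp apart. The strongest CTCF among the joint sites, with fold 18.4, was the Mtx2 site printed above, where HOXA13 had 4.11 and HOXD13 3.22.

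Inside the HoxD cluster joint sites were weak in HOX13. The site 2442 bp from the 5′ end of Evx2, a homeobox gene beside Hoxd13, had folds of 2.07 for HOXA13 and 2.16 for HOXD13 and 4.98 for CTCF, with summits 7 bp apart. Beside Hoxd10 the CTCF summit was 123 bp from the 5′ end, with folds of 2.66, 2.23 and 5.72, and DFL but not PFL H3K27ac. Near Hoxd8 the folds were 2.08 for HOXA13 and 16.6 for CTCF, with no HOXD13 region.

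In the HoxA cluster several joint sites had strong CTCF. At the site in an intron of Hoxa3, chr6:52211568-52211881, CTCF had fold 18.6 and HOXA13 and HOXD13 had 2.102 and 2.20. At Hoxa10 CTCF had 18.1 and the factors 1.78 and 2.09, and at Hoxa7 CTCF had 17.97 and the factors 3.44 and 3.36. The site 3742 bp from Hoxa13 itself had CTCF fold 13.9 and HOXA13 fold 2.47, with no HOXD13 region. Among the joint sites of the interval the strongest in HOX13 lay outside the cluster, in an intron of Hibadh, a mitochondrial dehydrogenase gene, at chr6:52601314-52602447, where the factors had 8.62 and 8.999, CTCF 17.1 and the summits were 429 bp apart.

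**Figure D5:**
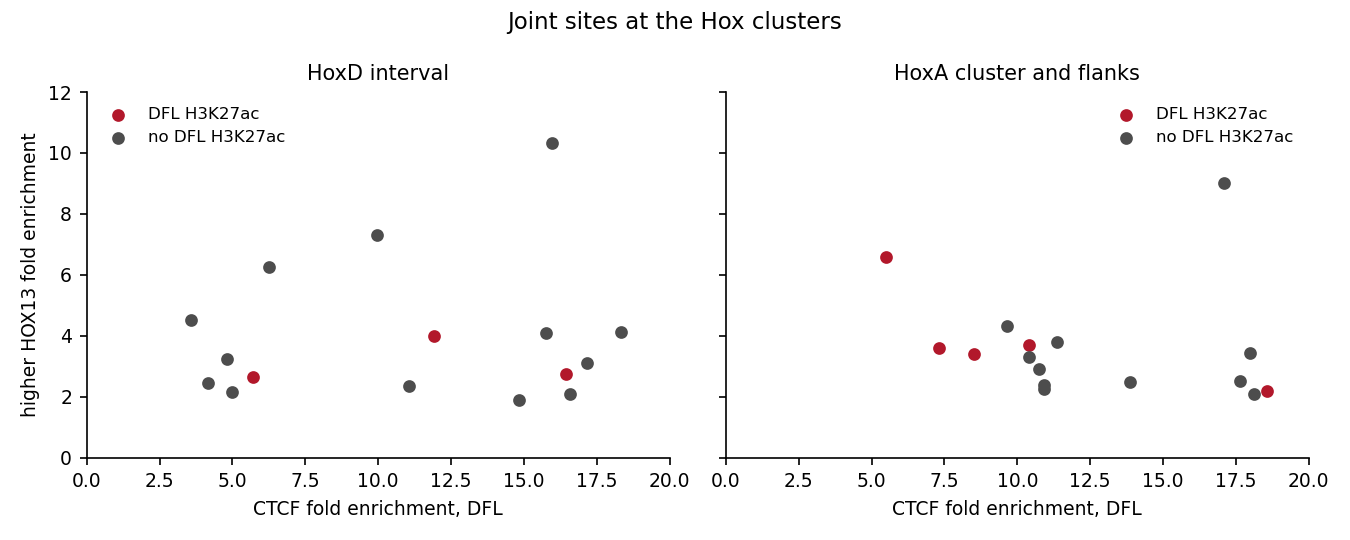
Higher of the HOXA13 and HOXD13 fold enrichments against DFL CTCF fold enrichment at the 16 joint sites of the HoxD interval (left) and the 16 of the HoxA cluster with its flanks (right), coloured by DFL H3K27ac. Most sites have HOX13 folds under 5 at any CTCF fold, and the highest HOX13 fold is 10.3 at a CTCF fold of 15.96 (left) and 8.999 at 17.1 (right).

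The 10 joint sites with the best worse rank had HOX13 folds of 10.7 to 17.9 and CTCF folds of 18.1 to 20.7, leaving out regions found in all 8 lists. Their summits were 99 to 476 bp apart with a median of 238.5 bp, over 200 bp at 9 of 10, where over all joint regions the median was 111 bp. In the strongest quartile of HOX13 fold the median was 123 bp and in the weakest 113.5 bp, and the strongest regions were also the longest, with medians of 615 and 203 bp. By CTCF fold it was 107.5 bp in the strongest quartile and 118 bp in the weakest. Strong sites with nearly coincident summits also occurred, among them the Rfx7, Slc10a1 and Pdk1 sites printed above, with summits 3, 8 and 1 bp apart. All 10 had PFL CTCF, as did all 13668 DFL CTCF regions of the strongest CTCF fold quartile, where these 10 lie. DFL H3K27ac was at 4 of the 10, against 41.4% of all joint HOX13 regions and 55.0% of those in the strongest HOX13 fold quartile.

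The first of them was chr5:101365489-101366185, intergenic and 299424 bp from Nkx6-1, a homeobox gene of pancreas and neural tube, with HOXA13 fold 15.6, HOXD13 fold 11.3 and CTCF fold 20.7. The second was chr6:6005847-6006441, in an intron of Dync1i1, a dynein chain gene within which limb enhancers of Dlx5 and Dlx6 are known. It had folds of 12.8, 14.4 and 20.01, summits 304 bp apart and H3K27ac in both pieces. The strongest HOX13 region among the 10 was in an intron of Abr, chr11:76525299-76526425, with folds of 15.4 for HOXA13 and 17.9 for HOXD13, CTCF 18.6 and summits 476 bp apart. Intronic sites also lay in Aff3, with folds of 12.1, 12.4 and 19.04, and in Arl13b, a cilium gene, with 10.9, 9.67 and 19.7.

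HOX13 regions without CTCF reached folds of 23.0 to 26.03 at the leading 5, in introns of Ntm and Cntfr and near Tle3, Tmem132e and Prox1, all with both factors. None of the 5 had DFL H3K27ac, against 26.98% of all separate HOX13 regions and 38.1% of those in the strongest HOX13 fold quartile. The 6 HOX13 regions above them in fold were all joint, and 4 of these 6 were in all 8 lists. CTCF regions without HOX13 reached 24.7 to 26.4, among them sites near Lrrc59, Scg3, Kifc1 and B3galnt2. All 5 were in PFL CTCF, as was every region of the strongest CTCF fold quartile. DFL H3K27ac was at 3 of them, against 10.5% of all separate CTCF regions, and 3 were within 2 kb of a gene's 5′ end. Of all separate CTCF regions 12.1% lay within 2 kb of a transcript start. Regions found in all 8 lists numbered 40 among joint HOX13 regions and are of doubtful meaning without an input control. Leaving them out gave joint shares of 8.88 and 12.4%.

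Genes of limb development were examined by joint sites within 50 kb of their 5′ end. Of 21701 protein-coding genes 35.1% had one. Of 36 genes of distal limb patterning 22 did (61.1%, 44.9 to 75.2%), and of 20 genes of the proximal limb 10 (50%, 29.9 to 70.1%). These intervals treat neighbouring Hox genes as independent. Without Hox and Evx genes, a choice made after seeing the data, 16 of 30 distal genes (53.3%) and 3 of 13 proximal genes (23.1%) had one. The proximal share was then below the 35.1% of all genes, but it rests on few genes and no interval was computed for it. Genes of both full limb lists had more HOX13 regions around them, with a median of 10 for distal and 11 for proximal genes, against 3 for all genes. The CTCF medians were 4.5, 5.5 and 4. Neighbouring Hox genes share sites: Hoxd13, Hoxd12, Hoxd11, Hoxd10 and Evx2 each had the same number, 3, and Hoxa13 had 6. Tbx2, a T-box transcription factor gene of the limb margins, had 6, Hand2, which sets up the posterior limb bud, had 4, and Msx2, Epha3 and Tbx3 had 3 each. Sall1, Sall3, Sall4, Bmp2, Bmp4, Lhx2, Lhx9, Shh, Gli3, Fgf8, Cyp26b1, Gdf5, Fmn1 and Lmbr1 had 0, although Sall1 had 11 HOX13 and 3 CTCF regions in its window. Among the proximal genes with 0 were Meis1, Meis2 and Shox2.

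The best-ranked limb gene site was 33255 bp from Dlx5, a homeobox gene of the limb ectoderm and skeleton, at chr6:6914037-6914945. It had folds of 8.16 for HOXA13 and 7.69 for HOXD13, 17.3 for CTCF, summits 438 bp apart, and H3K27ac in DFL but not in PFL. Next was a site 12989 bp from Ihh, the hedgehog ligand of growth plate cartilage, at chr1:74964678-74965194, with 7.77, 6.09 and 16.2 and H3K27ac in both pieces. The site 4709 bp from Aldh1a2, the retinoic acid synthesis gene, had 5.17, 5.86 and 12.9. The strongest CTCF of the group, fold 21.4, was 8360 bp from Epha3, an ephrin receptor gene, with HOXA13 at 5.08 and HOXD13 at 3.89. At Bmpr1b, the BMP receptor of digit cartilage, the CTCF summit was 102 bp from the 5′ end in an untranslated exon, with 4.88, 3.39 and 8.70. Tbx5, which starts forelimb growth, had an intronic site with 6.78, 5.60 and 8.94. Over the 10 sites summits were 101 to 525 bp apart, 4 had DFL H3K27ac and all 10 had PFL CTCF. Over all joint HOX13 regions the shares were 41.4% for DFL H3K27ac and 91.4% for PFL CTCF.

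Joint HOX13 summits were more often in exons than separate ones. Of joint HOX13 summits 39.7% were in introns of protein-coding genes and 45.5% were intergenic, against 45.9 and 43.3% of separate ones, untranslated exons held 5.27 and 2.70%, and coding exons 1.18 and 0.557%. Of joint CTCF summits 1.58% were in coding exons, against 2.99% of separate ones (2.84 to 3.15%).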

How the data were processed

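Per the labels, cutadapt, Bowtie, SAMtools and MACS2 were used, with mm10. The study's methods describe trimming, alignment, a filter on mapping quality and peak calling with summits, from paired reads for HOX13 and single reads for CTCF and the histone marks. No input control is described. The lowest −log10 q of the deposited lists matched a q-value threshold of 0.05. The deposited columns were the fold enrichment (a ratio), −log10 p and −log10 q by the authors' MACS2, and the summit offset. The lists hold no read totals. Whole-number pileup and local background, in fragments, were worked out from the deposited fold enrichment together with its −log10 p, by the Poisson tail. The lowest background was 6.10 for HOXA13, 7.71 for HOXD13 and 6.47 for DFL CTCF, so weak regions rest on few fragments.

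Overlapping lines were merged into regions, each with its highest summit, using python 3.11.15, numpy 2.4.6, pandas 2.3.3 and scipy 1.17.1, and plots used matplotlib 3.10.9. The code was tested on simulated data. Gene models were GENCODE M21 (44876 protein-coding transcript starts), and sequences were read from GRCm38.p6, the assembly of mm10. Named sites were all joint sites of both Hox intervals, the 10 joint sites with the best worse rank by fold, the 5 strongest separate regions of each list, leaving out regions in all 8 lists, and the best sites of 10 limb genes, named by the nearest protein-coding gene. The members and lists were chosen with earlier results of these data known, and the printed sequences, the longer core and the alternatives on orientation after seeing the data. Lines outside chromosomes 1 to 19 and X were left out. The number of columns of other samples left out was 0. Of the named sites and genes, some are not reported here.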

Additional observations from a re-analysis of the deposited data

Results flagged for a closer look

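The comparisons used chromosomes 1 to 19 and X, and the lists also held lines elsewhere. There were 110 HOXA13 lines, 210 HOXD13 lines and 119 DFL CTCF lines on chromosome Y, the mitochondrial genome and unplaced sequence, or 0.147, 0.341 and 0.214% of each list. They were flagged as signal outside the main measurement, with no control sample to set against it. Their highest folds were 19.6, 33.8 and 18.8.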

How the results depend on the processing

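Of 86 alternatives 25 left the value inside the interval of the main result, 58 moved it outside and 3 put it on the other side of an even ratio or share. For shares and medians this was the counting interval. For the observed over shifted ratio it was the range over shifts. For ratios of joint to separate it covered the error of the joint side alone. The HOX13 joint share was 7.08% with at least 0.5 of the shorter region overlapped, 6.89% with a summit inside the other region, 5.98% in windows of 100 bp each side, 8.39% at a −log10 q of at least 5, 5.99% at a fold of at least 5, 8.70% with PFL CTCF, 8.69% for the HOXA13 list, 8.18% for the HOXD13 list, 7.69% without sites near transcript starts and 17.0% for those near starts alone. The CTCF joint share under the same changes was 9.94, 7.90, 8.37, 7.29 and 2.96%, then 10.7% with HOXA13, 7.84% with HOXD13, 8.94% with lists of equal size, 6.78% with regions of both factors and 10.9% without sites near starts. The observed over shifted ratio was 4.11 with local shifts, 6.98 in windows of 100 bp and 4.46 at the stricter q. The median summit distance and the percent within 100 bp were 139 bp and 36.4% with the highest summit of each region, 134 bp and 37.0% for HOXA13, 106 bp and 47.6% for HOXD13, and 106 bp and 47.9% without sites near starts. The HOX13 ratio of joint to separate was 0.932 on −log10 q, 0.963 on the pileup, 0.970 without sites near starts, 0.986 with PFL CTCF, 0.965 for HOXA13 and 0.973 for HOXD13. It was 1.01 in the shortest length quartile and was 0.999, 0.954 and 0.875 in the others. The CTCF ratio was 2.71 on −log10 q, 2.02 on the pileup and 1.64 without sites near starts. It was 0.964 in the shortest length quartile and was 1.02, 1.10 and 1.03 in the others. The H3K27ac ratio, 1.54 over all HOX13 regions, was 1.69, 1.60 and 1.44 in the first, the third and the fourth quartile of HOX13 fold, 1.37 away from starts and 1.62 with PFL H3K27ac. Joint over separate motif ratios were 69.4 for the longer core at HOX13 summits and 1.22 at CTCF summits, 0.945 for the short core at CTCF summits in windows of 100 bp, and for HOX13 words at CTCF summits 2.87 in windows of 100 bp and 4.37 away from starts. The 3′ share of HOX13 summits was 63.1% away from starts, 65.7% with the longer core and 49.6% near starts, with an interval of 43.3 to 55.9% that holds an even split. The causes of these shifts were not tested. Each list had 1 library, called without an input control, so spread between embryos could not be measured, and weak regions and regions found in all 8 lists are the least certain.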
